A study of Danio rerio with 6 samples.

Results

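The lysosome is built from an acidifying pump, membrane proteins and soluble hydrolases, and transcripts of these components were examined in the livers of larval zebrafish (*Danio rerio*). The genes were chosen by name alone: 12 name beginnings and 30 full names for V-ATPase subunits, lysosomal membrane proteins, glycosidases, sulfatases, granulins, and the adaptors and receptors that deliver enzymes to lysosomes. The choice found 47 of the 6502 rows that carried a gene ID in the count table. Of these, 32 matched a name beginning, 12 a full name and 3 an older name of the same gene ID (*grna.1*, *grna.2* and *gnsb*). No row was found for 15 of the full names, including *glb1*, *gla*, *cd63* and *igf2r*, or for name beginnings *arsa* and *arsb*, and those genes were not analysed here.

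Libraries of cr*keap1a/b* larvae were compared with wild-type (WT) larvae at 7 days post fertilization (dpf), with 3 pools of 15 livers in each group. The cr*keap1a/b* larvae are crispants: embryos were injected at the one-cell stage with Cas9 and guide RNAs against both Keap1 paralogs, *keap1a* and *keap1b*, so that the knockout is mosaic and differs from cell to cell. Clutch siblings served as controls according to the study's methods, and the labels do not say whether WT embryos were injected. Keap1 represses the stress-induced transcription factor Nrf2, and the study, whose title concerns lysosome formation through TFEB and TFE3, asked how its loss altered liver transcripts.

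The V-ATPase is a rotary proton pump. Its cytosolic V1 sector hydrolyses ATP, and the membrane-embedded V0 sector carries protons into the lumen, where low pH activates the hydrolases. LAMP proteins line the limiting membrane. Most soluble glycosidases and sulfatases receive mannose 6-phosphate in the Golgi, are bound there by receptors, and travel with the clathrin adaptor AP-1, whereas AP-3 sorts membrane proteins towards lysosomes. In mammals, many of these genes are targets of the transcription factors TFEB and TFE3. The liver relies on lysosomes to break down glycoproteins, glycosaminoglycans and spent organelles.

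The libraries held 12556524 to 14335769 counts in cr*keap1a/b* and 10846582 to 16666610 counts in WT. These totals exceed the read depth per sample that the study's methods state, and the reason was not tested. Replicate 3 of each group stood apart: 47.6% of genes were at 0 counts in cr*keap1a/b* replicate 3 and 53.2% in WT replicate 3, against 2.83% to 13.2% in the other 4 libraries. Both replicate 3 pools carry the letter b in the sample descriptions and the other 4 carry the letter a, whose meaning the labels do not give. Results are therefore also given for the 4 letter a pools. The descriptions also carry a number, 2 for cr*keap1a/b* replicates 2 and 3 and WT replicates 1 and 3, and 1 for the others. The labels do not say what it means or whether pools of a group that share it are independent. Number and letter together are called the description code below. Transcripts of *keap1a* and *keap1b* were at 0 to 489 counts and overlapped between groups, but reads near the 3′ end of a transcript do not test edited sites elsewhere in it. Hepatocyte markers were high in every pool, with a summed level of 59000, 56940 and 29170 CPM (counts scaled to a common library size, here the total multiplied by the TMM factor of each library) in cr*keap1a/b* and of 77050, 73830 and 42550 CPM in WT, from 11 of 12 listed genes. Of these 11 hepatocyte markers, 8 had negative and 3 positive log2 fold changes. By limma-voom 1, *fabp10a*, was called lower in cr*keap1a/b* (adjusted p = 0.00079) and 0 higher, and in the letter a pools 3 were called lower and 0 higher. Exocrine pancreas markers summed to between 8645 and 12290 CPM in cr*keap1a/b* and between 25730 and 40570 CPM in WT. Of the 13 markers with a row (of 17 listed), 8 were called lower in cr*keap1a/b*. The macrophage and leukocyte list had rows for 3 of 18 genes (*marco*, *spi1b* and *laptm5*), which summed to 15.0 to 40.0 CPM in cr*keap1a/b* and 0 to 42.0 CPM in WT. The 42.0 CPM came from *spi1b* alone, in WT replicate 3. All 3 genes had positive log2 fold changes, 1 of them at an unadjusted p under 0.05 by limma-voom, and 0 were called. *laptm5* also belongs to the 47 genes. For intestine and lysosome-rich enterocytes 4 of 12 genes had rows, at 98.4 to 441 CPM in cr*keap1a/b* and 186 to 299 CPM in WT. Erythrocyte markers (6 of 9 genes) summed to 432 to 1698 CPM in cr*keap1a/b* and 416 to 510 CPM in WT, and skeletal muscle markers (4 of 8 genes) to 210 to 323 CPM in cr*keap1a/b* and 331 to 1432 CPM in WT. Their part in the results that follow was not tested. In such bulk samples, a change in the share of a cell type and a change in RNA per cell cannot be told apart.

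Summed over the lysosomal genes, the level was higher in cr*keap1a/b*, without overlap between the groups. The 47 genes together reached 2391, 2398 and 2930 CPM in cr*keap1a/b* replicates 1, 2 and 3, and 1335, 1470 and 1727 CPM in WT replicates 1, 2 and 3. Without TMM scaling the order was the same, at 2224, 2407 and 3942 CPM of plain library size in cr*keap1a/b* and 1079, 1265 and 1971 CPM in WT. In 16 of the 47 genes (34.0%) the lowest cr*keap1a/b* pool exceeded the highest WT pool, and in 0 genes did the reverse hold. Over the 6386 genes tested, such upward separation was seen in 8.39% and downward separation in 5.0%. At plain library size the same 16 genes separated upward and 0 downward, against 10.4% and 3.84% of all genes. The median log2 fold change was 2.31 over the 47 genes and 0.36 over all genes tested, and 35 of 47 values (74.5%) were positive, against 57.0% of all genes. Without WT replicate 3 the medians were 0.91 over the 47 genes and −0.50 over all genes.

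No single one of the 47 genes passed the test, however. With limma-voom, a model fitted across all genes, 0 of the 47 were differentially expressed genes (DEGs, Benjamini-Hochberg adjusted p under 0.05), where 0.595% of all genes were called higher and 0.595% lower, or 1.19% in either direction. So few genes were called over the whole table that 0 of 47 lies near the share of all genes. Adjusted p-values ran from 0.506 for *atp6v1d* to 0.9996. At an unadjusted p under 0.05 there were 4 (*atp6v1d*, *naga*, *atp6v0ca* and *grna*), or 8.51% against 7.61% of all genes. edgeR called 0, against 0.345% of all genes. DESeq2 called 0, against 3.15% of the 4727 genes to which it gave an adjusted p, and it gave none for 7 of the 47. In each of these 2 tests, 2 of the 47 genes (4.26%) had an unadjusted p under 0.05. The share of all genes at that unadjusted p was not counted for these 2 tests. Since the labels do not say whether pools came from separate clutches, such p-values measure only the spread between these pools.

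**Figure D1:**
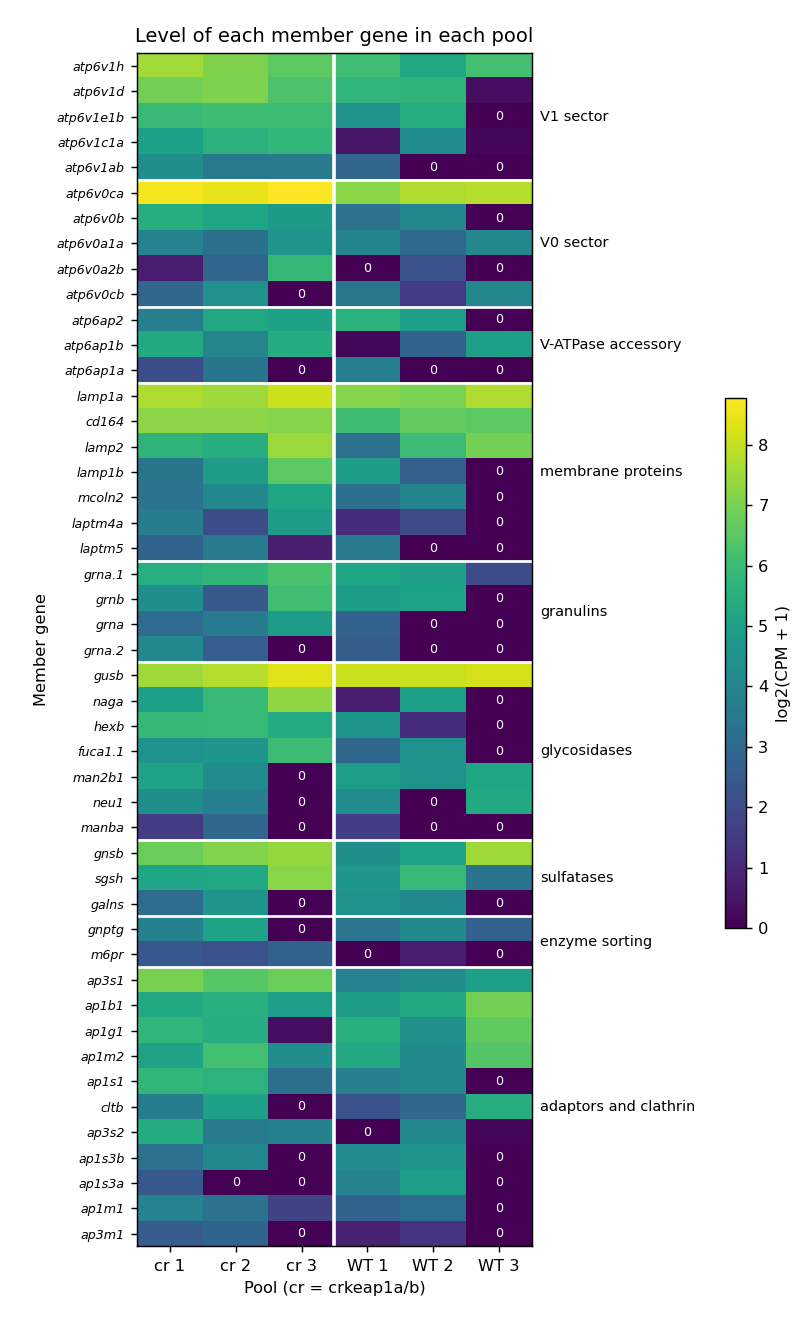
Level of each of the 47 lysosomal genes in each pool, as log2(CPM + 1) by colour, with genes in rows grouped by role, cr*keap1a/b* pools 1 to 3 (cr) left of the white line and WT pools right of it. A printed 0 marks a gene with 0 counts, of which there are 12 in cr*keap1a/b* replicate 3 and 24 in WT replicate 3.

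Separation was complete in the V1 sector, in which all 5 genes were higher in each cr*keap1a/b* pool than in each WT pool. Such upward separation was seen in 8.39% of all genes tested. WT replicate 3 held 0 counts of *atp6v1ab* and *atp6v1e1b*, 2 of *atp6v1c1a* and 4 of *atp6v1d*. Within the letter a pools all 5 also separated upward, against 23.8% of all genes. Summed, the V1 genes stood at 423, 394 and 303 CPM in cr*keap1a/b* and at 148, 150 and 70.8 CPM in WT, or 374 ± 62.3 CPM against 123 ± 45.2 CPM (SD, n = 3 each). *atp6v1h* (Entrez 286779), which encodes the regulatory subunit H, had 188, 133 and 93.0 CPM in cr*keap1a/b* and 66.4, 37.7 and 70.5 CPM in WT. It was the only V1 gene above 1 CPM in all 6 pools, and its nearest values, 93.0 CPM in cr*keap1a/b* and 70.5 CPM in WT, were both of replicate 3. Its log2 fold change was 1.1 ± 0.86 (SE), and 1.65 ± 0.46 (SE) in the letter a pools.

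The rotor subunit gene *atp6v1d* (Entrez 393935) had 123, 135 and 79.8 CPM in cr*keap1a/b* and 53.7, 51.7 and 0.233 CPM in WT. The lowest of these WT values came from 4 counts in replicate 3. The log2 fold change was 4.68 ± 2.08 (SE) in all 6 pools and 1.31 ± 0.46 (SE) in the letter a pools. On the same 6 pools edgeR gave 1.68 and DESeq2 1.69, and the ratio of mean CPM was 3.2. *atp6v1e1b* (Entrez 192335), a gene of the peripheral stalk, varied little among cr*keap1a/b* pools, at 60.3, 66.0 and 63.6 CPM, against 21.2, 43.1 and 0 CPM in WT. Here the letter a pools gave 1.12 ± 0.59 (SE) on the log2 scale, compared with 4.81 ± 2.7 (SE) in all 6. For all 6 pools edgeR gave 1.564 and DESeq2 1.585.

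The remaining V1 genes were scarce in 2 of 3 WT pools. *atp6v1c1a* (Entrez 368907), whose product joins the stalks to the membrane sector, had 31.5, 48.8 and 55.7 CPM in cr*keap1a/b* and 0.419, 17.6 and 0.117 CPM in WT. *atp6v1ab* (Entrez 337583), 1 of the genes for the catalytic subunit A, had 19.8, 10.7 and 11.2 CPM in cr*keap1a/b* and 6.49, 0 and 0 CPM in WT. Ratios of mean CPM over the V1 genes ranged from 2.38 for *atp6v1h* to 7.49 for *atp6v1c1a*. In cr*keap1a/b* livers the V1 genes thus spanned a range of mean levels from 13.9 to 138 CPM.

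**Figure D2:**
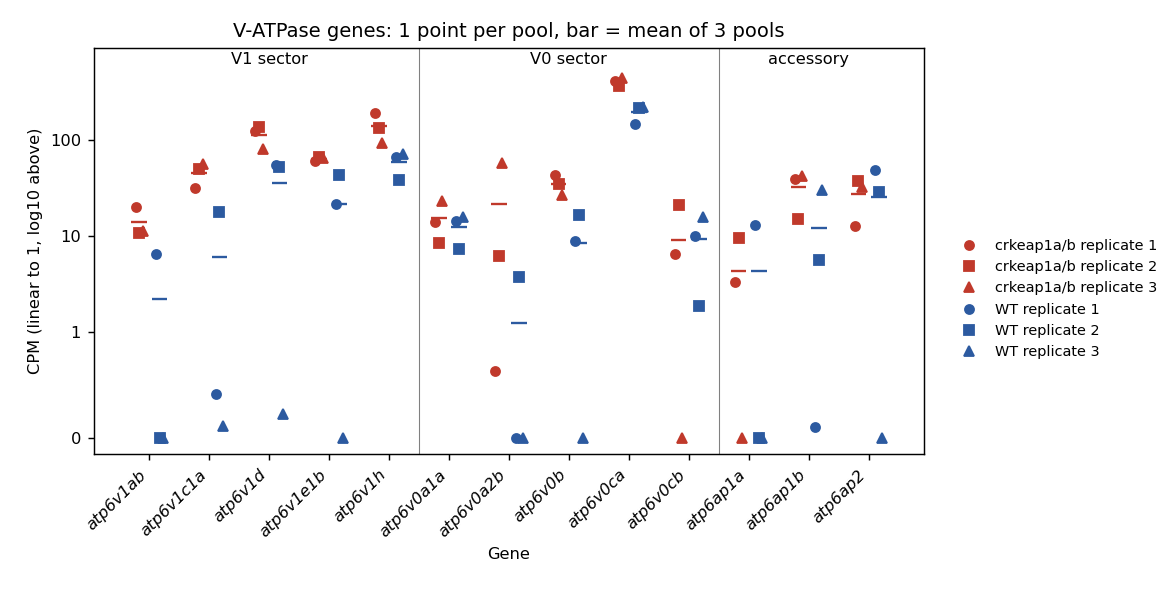
CPM of the 13 V-ATPase genes (linear up to 1, log10 above), with 1 point per pool in cr*keap1a/b* (red, left) and WT (blue, right) and a short bar for the mean of 3 pools. In the 5 V1 genes every red point lies above every blue point, whereas the accessory genes overlap.

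In the V0 sector, upward separation was seen for 2 of 5 genes, against 8.39% of all genes tested. Both encode subunits of the proteolipid ring through which protons pass. *atp6v0ca* (Entrez 192336), for the ring subunit c, was the most abundant of all 47 genes in cr*keap1a/b* livers, with 407, 362 and 438 CPM in cr*keap1a/b* and 146, 212 and 220 CPM in WT. Both groups were tight, and the means of 402 ± 38.2 CPM and 193 ± 40.7 CPM (SD, n = 3 each) differed by a ratio of 2.08. The log2 fold change was 1.05 ± 0.50 (SE) in all pools and 1.15 ± 0.33 (SE) in the letter a pools. *atp6v0b* (Entrez 321724), for the related ring subunit c″, had 42.8, 34.5 and 26.7 CPM in cr*keap1a/b* and 8.69, 16.3 and 0 CPM in WT. Its log2 fold change was 4.54 ± 2.90 (SE), and 1.76 ± 0.94 (SE) in the letter a pools. Over all 6 pools it was 2.06 in edgeR and in DESeq2.

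The other V0 genes did not separate the groups. *atp6v0a1a*, for an isoform of the large subunit a, ranged from 8.35 to 23.0 CPM in cr*keap1a/b* and from 7.22 to 15.6 CPM in WT. *atp6v0a2b*, for another isoform of subunit a, ranged from 0.629 to 57.0 CPM in cr*keap1a/b* and from 0 to 3.67 CPM in WT, so that its high ratio of means came from 1 pool. *atp6v0cb*, the paralog of *atp6v0ca*, lay between 0 and 20.7 CPM in cr*keap1a/b* and between 1.84 and 15.8 CPM in WT. In every pool *atp6v0ca* was by far the more abundant of these paralogs.

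The 3 accessory genes overlapped. *atp6ap2* (Entrez 406296), for the (pro)renin receptor that aids pump assembly, had the highest mean of this class over all pools, with 12.5, 36.7 and 31.7 CPM in cr*keap1a/b* and 47.7, 28.7 and 0 CPM in WT. The WT pools held both its highest and its lowest value. Accordingly the log2 fold change was 3.32 ± 2.82 (SE) in all 6 pools but −0.75 ± 0.68 (SE) in the letter a pools. On the same 6 pools edgeR gave 0.083 and DESeq2 0.15, and the ratio of mean CPM was 1.06. *atp6ap1b* lay between 14.8 and 42.1 CPM in cr*keap1a/b* and between 0.105 and 30.0 CPM in WT, and *atp6ap1a* was at or below 12.8 CPM in all pools. Over all 13 V-ATPase genes the summed level was 948, 887 and 922 CPM in cr*keap1a/b* and 388, 426 and 353 CPM in WT, with 12 positive fold changes.

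Among membrane proteins, *cd164* and *laptm4a* separated the groups and the LAMP genes did not. *cd164* (Entrez 555639), for the sialomucin endolyn, was even across pools, at 151, 153 and 144 CPM in cr*keap1a/b* and 66.0, 101 and 92.6 CPM in WT, and its log2 fold change was 0.79 ± 0.72 (SE). *laptm4a* (Entrez 100003844), for a small transmembrane protein of late endosomes and lysosomes, was low throughout, with 11.9, 3.18 and 27.6 CPM in cr*keap1a/b* and 1.15, 3.06 and 0 CPM in WT. The gap between its nearest values, 3.18 and 3.06 CPM, was small.

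*lamp1a* (Entrez 324985), the most abundant membrane protein gene, had 205, 181 and 272 CPM in cr*keap1a/b* and 143, 127 and 209 CPM in WT. The groups overlapped because WT replicate 3 exceeded 2 cr*keap1a/b* pools, but within letter a, and between the letter b pools, cr*keap1a/b* was the higher. The log2 fold change was 0.40 ± 0.58 (SE), smaller than its error. *lamp2* ranged from 43.3 to 176 CPM in cr*keap1a/b* and from 9.0 to 123 CPM in WT, and *lamp1b* from 9.52 to 93.6 CPM in cr*keap1a/b* and from 0 to 27.4 CPM in WT. *mcoln2*, for the cation channel TRPML2, lay between 9.07 and 35.9 CPM in cr*keap1a/b* and between 0 and 14.7 CPM in WT. *laptm5*, which is enriched in leukocytes in mammals, lay between 0.666 and 11.1 CPM in cr*keap1a/b* and between 0 and 11.5 CPM in WT. All 7 membrane protein genes had positive fold changes, in all 6 pools and in the letter a pools alike, with a median of 3.57 and 0.94 on the log2 scale.

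Glycosidases divided by gene. Upward separation was seen for *hexb*, *naga* and *fuca1.1*, which remove terminal hexosamine, N-acetylgalactosamine and fucose. *hexb* (Entrez 323613), for the β subunit of hexosaminidase, had 56.5, 58.6 and 40.9 CPM in cr*keap1a/b* and 24.2, 1.22 and 0 CPM in WT. *naga* (Entrez 560778), for α-N-acetylgalactosaminidase, had 31.5, 60.7 and 158 CPM in cr*keap1a/b* and 0.628, 31.1 and 0 CPM in WT. The lowest cr*keap1a/b* and the highest WT value of *naga* were nearly equal. *fuca1.1* (Entrez 335494), for an α-L-fucosidase, had 21.0, 23.7 and 63.8 CPM in cr*keap1a/b* and 6.70, 20.7 and 0 CPM in WT. Its nearest values, 21.0 CPM in cr*keap1a/b* and 20.7 CPM in WT, were likewise nearly equal. The log2 fold changes of these 3 genes were 5.63 ± 2.83, 6.28 ± 2.84 and 4.58 ± 2.92 (SE), each with WT replicate 3 at 0. They were 3.15 ± 1.68, 3.56 ± 1.91 and 1.05 ± 1.0 (SE) in the letter a pools. For all 6 pools edgeR gave 2.62, 2.98 and 1.99, and DESeq2 2.68, 3.06 and 2.07.

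For *gusb* (Entrez 571441), which encodes β-glucuronidase and was the most abundant of the 47 genes in WT livers, the groups overlapped. It had 184, 222 and 324 CPM in cr*keap1a/b* and 271, 271 and 296 CPM in WT, a log2 fold change of −0.22 ± 0.50 (SE). Within letter a both cr*keap1a/b* pools lay below both WT pools, and between the letter b pools cr*keap1a/b* was the higher. Among the most abundant genes, *atp6v0ca* ranked above *gusb* in all 3 cr*keap1a/b* pools and below it in all 3 WT pools. *man2b1* and *neu1*, for an α-mannosidase and a sialidase, were detected in 2 cr*keap1a/b* pools at 12.8 to 32.2 CPM and were at 0 in cr*keap1a/b* replicate 3. In WT, *man2b1* lay between 21.2 and 34.9 CPM and *neu1* between 0 and 39.6 CPM. *manba*, for β-mannosidase, did not exceed 6.52 CPM in any pool.

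Of the granulin genes, *grna* and *grna.1* separated the groups. In mammals, granulins are cleaved in lysosomes from the secreted precursor progranulin. *grna.1* (Entrez 553977) had 45.4, 52.3 and 75.2 CPM in cr*keap1a/b* and 35.5, 28.8 and 3.09 CPM in WT. *grna* (Entrez 791524) had 7.36, 11.2 and 27.3 CPM in cr*keap1a/b* and 5.76, 0 and 0 CPM in WT. The log2 fold change of *grna.1* was 2.58 ± 1.70 (SE) in all pools, 0.83 without WT replicate 3 and 0.62 ± 0.60 (SE) in the letter a pools. That of *grna* was 5.98 ± 2.93 (SE) in all pools and 3.91 ± 3.24 (SE) in the letter a pools. For *grna.1* and *grna* in all pools edgeR gave 1.36 and 2.99, and DESeq2 1.425 and 3.16. *grnb* overlapped, at 4.46 to 67.5 CPM in cr*keap1a/b* and 0 to 33.4 CPM in WT, and was lower in both cr*keap1a/b* letter a pools than in both WT ones. *grna.2* reached at most 15.8 CPM.

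The sulfatases remove sulfate groups from glycosaminoglycans, and none of the 3 separated the groups. *gnsb* (Entrez 327635), for an N-acetylglucosamine-6-sulfatase, had 112, 136 and 166 CPM in cr*keap1a/b* and 19.6, 32.4 and 182 CPM in WT. WT replicate 3 alone exceeded the cr*keap1a/b* pools, and the log2 fold change was 1.02 ± 0.92 (SE) in all pools and 2.35 ± 0.60 (SE) in the letter a pools. *sgsh*, for the heparan sulfatase sulfamidase, ranged from 34.8 to 147 CPM in cr*keap1a/b* and from 9.50 to 57.5 CPM in WT. *galns*, which acts on keratan and chondroitin sulfate, ranged from 0 to 22.2 CPM in cr*keap1a/b* and from 0 to 21.8 CPM in WT.

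Genes for enzyme delivery were uneven. *m6pr* (Entrez 406486), for the cation-dependent mannose 6-phosphate receptor, had 48, 46 and 84 counts in cr*keap1a/b* (4.31, 3.66 and 5.59 CPM) and 0, 5 and 0 counts in WT. It was the scarcest gene that separated the groups. *gnptg* (Entrez 415147), for a subunit of the phosphotransferase that makes the mannose 6-phosphate tag, had 13.5, 33.3 and 0 CPM in cr*keap1a/b* and 9.95, 17.3 and 5.54 CPM in WT. Its log2 fold change was −1.92 ± 3.26 (SE) in all pools and 0.80 ± 0.94 (SE) in the letter a pools.

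Of the adaptor genes, *ap3s1* alone separated the groups. *ap3s1* (Entrez 449791), for a small subunit of AP-3, had 124, 90.1 and 110 CPM in cr*keap1a/b* and 13.8, 18.9 and 30.1 CPM in WT. It was detected in every pool, its cr*keap1a/b* values were at least 90.1 CPM where no WT value exceeded 30.1 CPM, and the ratio of means was 5.16. The log2 fold change was 2.27 ± 1.39 (SE) in all pools and 2.74 ± 0.74 (SE) in the letter a pools. All 3 AP-3 genes had positive fold changes, with a summed level of 171, 107 and 123 CPM in cr*keap1a/b* and 14.6, 36.6 and 30.2 CPM in WT. Among the 7 AP-1 genes 2 fold changes were positive and 5 negative, around a median of −0.53. AP-1 genes summed to 208, 230 and 59.23 CPM in cr*keap1a/b* and 162, 153 and 304 CPM in WT, and none separated the groups. In the letter a pools 5 of the 7 were positive. The clathrin light chain gene *cltb* lay between 0 and 31.8 CPM in cr*keap1a/b* and between 3.56 and 43.5 CPM in WT.

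**Figure D3:**
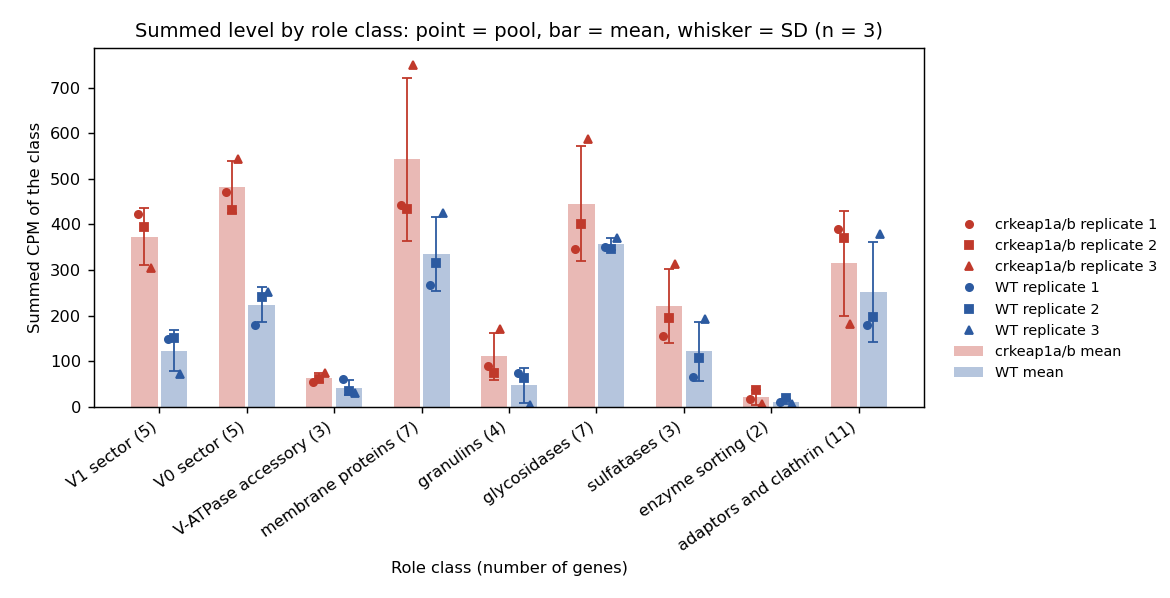
Summed CPM of each role class, with the number of genes in parentheses; points are pools, bars are means of 3 pools and whiskers are SD, cr*keap1a/b* (red) left of WT (blue). V1 genes average 374 CPM in cr*keap1a/b* and 123 CPM in WT, whereas adaptors and clathrin overlap, with replicate 3 lowest in cr*keap1a/b* and highest in WT.

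Classes with complete separation of the summed level were the V1 sector, the V0 sector and the membrane proteins. At plain library size the V1 and V0 sums still separated, whereas membrane proteins overlapped, at 413, 436 and 1009 CPM in cr*keap1a/b* and 215, 271 and 485 CPM in WT, and the accessory and granulin sums separated. For the V0 sector the sums were 471, 431 and 544 CPM in cr*keap1a/b* and 179, 242 and 252 CPM in WT. Membrane proteins summed to 444, 435 and 750 CPM in cr*keap1a/b* and 266, 315 and 425 CPM in WT, with the highest WT pool close to the lowest cr*keap1a/b* pool. With TMM scaling, glycosidases, granulins, sulfatases, accessory genes, enzyme sorting genes and adaptors overlapped in at least 1 pair of pools. The 3 most abundant genes, *atp6v0ca*, *gusb* and *lamp1a*, made up 31.9% to 35.3% of the summed level in cr*keap1a/b* and 41.6% to 42.1% in WT.

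Many fold changes differed between all 6 pools and the letter a pools. WT replicate 3 had 0 counts for 24 of the 47 genes (51.1%, against 52.6% of all genes tested), and cr*keap1a/b* replicate 3 for 12 (25.5%, against 47.1%). Among the 24 genes at 0 in WT replicate 3, 20 had a larger log2 fold change in all 6 pools than in the letter a pools, and the median was 3.89 in all 6 pools and 1.80 in the letter a pools. For the other 23 genes the medians were 0.57 in all 6 pools and 1.1 in the letter a pools. Because the split was made on a 0 in a WT pool, it favours such shifts by itself. The same split was not counted over all genes. Only 17 of the 47 genes were above 0 in all 6 libraries. Over these, the median log2 fold change was 1.02, against 0.01 over the 1935 tested genes above 0 in every library, and 7 of the 17 separated the groups upward, against 12.7% of those 1935 genes.

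**Figure D4:**
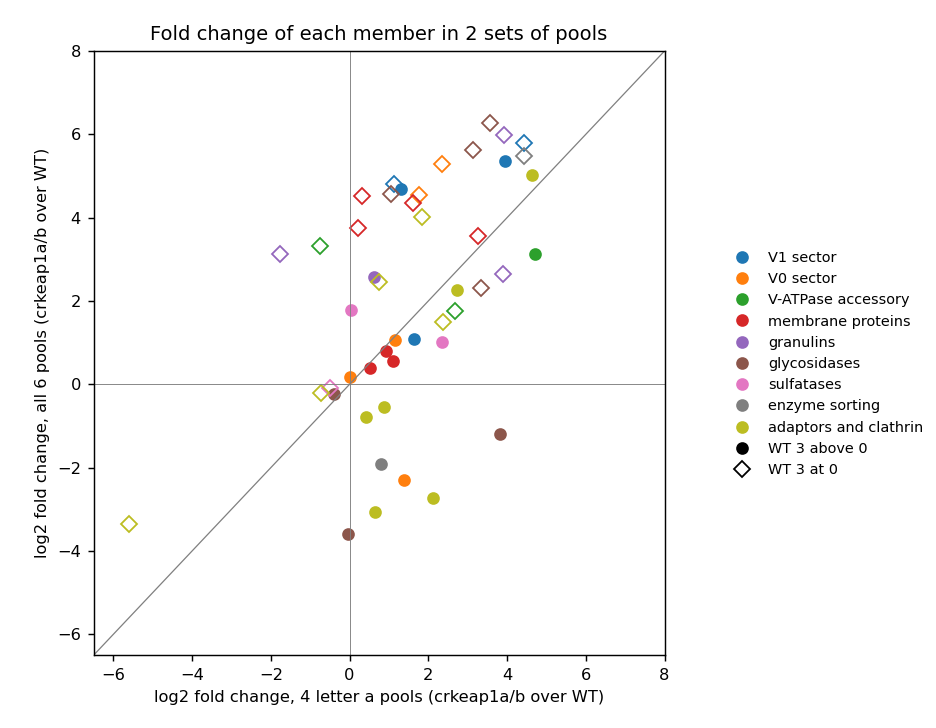
Limma-voom log2 fold change (cr*keap1a/b* over WT) of each of the 47 genes in all 6 pools against that in the 4 letter a pools, coloured by role; open diamonds are the 24 genes at 0 counts in WT replicate 3, and the grey diagonal marks equal values. Of the diamonds, 20 lie above the diagonal, which picking genes by a 0 in a WT pool favours by itself.

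Within the 4 letter a pools, 40 of the 47 genes had positive log2 fold changes around a median of 1.31, against 55.5% positive and a median of 0.21 over all genes. Both cr*keap1a/b* pools lay above both WT pools in 25 genes (53.2%, against 23.8% of all genes) and below in 4 (8.51%, against 19.4%). limma-voom called 4 genes there, all of which rose: *gnsb* (adjusted p = 0.00350), *ap3s1* (adjusted p = 0.00767), *atp6v1h* (adjusted p = 0.0122) and *atp6v0ca* (adjusted p = 0.0124). That is 8.51% of the 47, where 4.46% of all genes were called in either direction and 2.31% higher. edgeR on the same 4 pools called *ap3s1* (adjusted p = 0.0355), 2.13% of the 47 against 1.86% of all genes, with *gnsb* at an adjusted p of 0.0542, *atp6v1h* at 0.127 and *atp6v0ca* at 0.145. These 4 genes were each above 0 counts in all 6 pools. With 1 pool per group in letter b no test could be made there. Between those 2 pools, cr*keap1a/b* was higher than WT for 31 of the 47 genes and lower for 9, and both pools were at 0 for 7. Over all genes tested, cr*keap1a/b* was higher in 36.0% and lower in 32.2%, and both pools were at 0 in 31.7%. Of the 4 called genes *gnsb* alone was lower there, at 166 CPM in cr*keap1a/b* replicate 3 and 182 CPM in WT replicate 3.

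Other lysosomal genes were counted for comparison from lists typed from general knowledge. Of 15 tested lysosomal proteases, 14 had positive log2 fold changes around a median of 2.1, 7 separated the groups upward and 1, *lgmn*, rose by the limma-voom test (adjusted p = 0.0148, against 0.00278 in DESeq2, 0.0584 in edgeR and 0.0882 in limma-voom with rows lacking a gene ID kept). Of 15 tested lipid-handling genes, 9 were positive around a median of 0.32, 2 separated upward and 1 downward, and 1, *psap*, rose by the same test (adjusted p = 0.00128, against 0.00760 in DESeq2, 0.0670 in edgeR and 0.0166 with those rows kept). These 2 genes were named after their values were seen. Over all genes tested, 57.0% were positive around a median of 0.36, 8.39% separated upward, 5.0% separated downward and 0.595% were called higher. The positive share of the lipid-handling genes was near that of all genes. Among 9 tested genes for the MiT/TFE factors and lysosomal mTORC1 regulation, 5 were positive and 2 separated upward. Of these 9, 0 passed the test, with 1 gene at an unadjusted p under 0.05. Summed levels of the proteases were 2676, 2989 and 4524 CPM in cr*keap1a/b* and 1299, 1320 and 1475 CPM in WT.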

How the data were processed

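Livers were dissected from larvae at 7 dpf and pooled in groups of 15, with 3 cr*keap1a/b* and 3 WT pools. Libraries were made with the QuantSeq 3′ kit. Per the labels and methods, the authors trimmed single-end reads with cutadapt 1.16, aligned them with STAR 2.7.5b to danRer11 and counted them with featureCounts 1.6.3. The deposited values are raw counts per gene, not normalised, under Entrez gene IDs. Why other genes have no row was not tested, and a gene without a row need not be absent from the liver. Shares of all genes refer only to genes with a row. A 3′ count does not scale with transcript length, so levels are compared between genes as CPM. How reads shared by paralogs were assigned is not given in the sources used here, so the division between *lamp1a* and *lamp1b*, *atp6v0ca* and *atp6v0cb*, *atp6ap1a* and *atp6ap1b*, *ap1s3a* and *ap1s3b*, and the granulin genes is uncertain. The setting for strand is not given either, so reads of overlapping genes cannot be told apart.

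Of 6637 rows, 135 had no gene ID and were left out of totals and tests. These held 11.1% to 12.7% of counts in cr*keap1a/b* and 9.82% to 13.6% in WT. RefSeq's GRCz12tu gene table gave symbols to 6426 rows. That build differs from the authors' build, so no coordinates are printed. The smallest level that the depth can show, 3 counts, was 0.200 to 0.269 CPM in cr*keap1a/b* and 0.175 to 0.367 CPM in WT on the TMM scale, for counting error only.

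Genes were kept by filterByExpr, which all 47 genes passed, scaled by TMM and tested with limma-voom (limma 3.58.1, edgeR 4.0.16, R 4.3.3) with group as the only term and Benjamini-Hochberg adjustment over 6386 genes. The procedure was tested on simulated counts in which the replicate 3 libraries did not stand apart. That test therefore does not measure its power in these data. SE are moderated standard errors, and SD are over pools. Alternatives were edgeR's quasi-likelihood test, DESeq2 1.42.0, RLE factors, library size only, no filter, an adjusted p under 0.1, each pool left out, replicate blocks, the description letter as covariate and the letter a pools only. Keeping the rows without a gene ID, edgeR on the letter a pools and separation at plain library size were added after seeing the data.

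The genes, lists and alternatives were chosen with earlier results of these data known. Genes described with per-pool values are those called, those whose groups do not overlap, the 5 of smallest p, the gene of highest mean in each role class, and *atp6v0b*, which the study's text singles out. Other genes are given by ranges.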

Additional observations from a re-analysis of the deposited data

How the results depend on the processing

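The count of the 47 genes called by limma-voom, 0 higher and 0 lower, was the same under 14 of the 15 other planned fits and at an adjusted p under 0.1. The exception was the 4 letter a pools, with 4 higher. Of the fits added after seeing the data, edgeR on the letter a pools gave 1 higher and keeping rows without a gene ID gave 0. The median log2 fold change of the 47 genes stayed positive, at 1.25 in edgeR, 1.19 in DESeq2, 1.31 in the letter a pools, 0.89 in edgeR on those pools and 0.91 to 3.17 with 1 pool left out. The 0.91 came without WT replicate 3, where the median of all genes was −0.50. Library size only moved the median of all genes from 0.36 to 0.57; the 47 genes stood 1.95 above it with TMM and 1.89 above it with library size only, and 0.83 to 2.47 above it over all settings. Of the 21 genes described with per-pool values, 18 kept their direction in all 17 alternatives. However, 16 of the 21 were chosen because their groups do not overlap, which by itself makes a change of direction unlikely. The 3 genes that changed direction, *atp6ap2*, *gnptg* and *gusb*, were not among those 16. The value of *atp6ap2* was 0.083 in edgeR and 0.15 in DESeq2. It was −0.75 in the letter a pools and −0.62 there in edgeR, and −0.56 to 4.55 with 1 pool left out. That of *gnptg* was 0.51 in edgeR, 0.41 in DESeq2, 0.80 in the letter a pools in both tests, and −3.55 to 1.45 with 1 pool left out. For *gusb* the range with 1 pool left out was −0.47 to 0.0040. The cause of these changes was not tested. Over all genes, 76 calls became 22 in edgeR, 149 in DESeq2, 36 with RLE factors, 17 with the letter as covariate, 288 in the letter a pools, 120 there in edgeR, and 1 to 162 with 1 pool left out (31, 1 and 162 without cr*keap1a/b* replicate 1, 2 or 3, and 1, 4 and 99 without WT replicate 1, 2 or 3).

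With a replicate block by title number the 47 genes had a median of 1.89 and with a replicate block by description code 1.85, each with 0 called. Over all genes these blocks called 3 and 5. Deviations of same-numbered pools correlated at 0.01 to 0.074 by title number and 0.045 to 0.074 by description code. Each pool correlated best with that of its own code, but not every pool with that of its own title number. No pair exceeded 0.1, and the main fit did not treat the pools as pairs. Such low correlations do not show that the pools were unpaired. Differences below about 3 counts cannot be shown at this depth.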

Other observations

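The β-galactosidase gene *glb1* had no row and was not analysed here. A gene named for its similarity to it, *glb1l* (Entrez 100001628), was singled out after its values were seen. It had 410, 378 and 340 counts in cr*keap1a/b* and 1, 1 and 0 counts in WT, so that all 3 WT pools were at or below the floor of 3 counts per library. Against that floor, the mean CPM of cr*keap1a/b* was higher by 81.2-fold. This is not a lower bound, since the floor covers counting error only. *keap1a*, for example, had 375, 0 and 379 counts in WT, so a 0 need not mean a level below the floor. *glb1l* passed the filter on low counts only through its cr*keap1a/b* pools. The share of all genes with such low counts in WT alone was not counted. The adjusted p was 0.117 in limma-voom, 0.844 in edgeR and 0.00145 in DESeq2, and within the letter a pools 0.281 in limma-voom and 0.0421 in edgeR, so the call depended on the tool.

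Of the MiT/TFE factors, which drive lysosomal genes in mammals, *tfe3a* (Entrez 114834) was the only one of 6 listed with a row. It had 66, 124 and 276 counts in cr*keap1a/b* and 0 counts in all 3 WT pools. Its mean CPM was 31.0-fold higher against the same floor, which again is not a lower bound. It did not pass the test, with an adjusted p of 0.290 in limma-voom, 0.9997 in edgeR and none given by DESeq2. Like *glb1l*, it passed the filter on low counts only through its cr*keap1a/b* pools. The share of all genes at 0 in every WT pool but detected in every cr*keap1a/b* pool was not counted.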
